A study of Pongo abelii with 8 samples.

Results

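Transcripts of BMP (bone morphogenetic protein) signalling and of the ID genes were followed in skin fibroblasts of the Sumatran orangutan and in induced pluripotent stem cells (iPSCs) made from them. The set comprised 10 genes: the ligands BMP2 and BMP4, the receptors BMPR1A and BMPR2, the antagonists BAMBI and GREM1, and the inhibitor of DNA binding genes ID1, ID2, ID3 and ID4. A probe set was taken as a member where the array's annotation gave it exactly 1 gene symbol and that symbol was one of the 10. This gave 15 of the 22277 probe sets and 9 of the 10 genes. BMPR1A was not analysed here.

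The series held 8 human GeneChip arrays, each of 1 culture. The 6 iPSC arrays were 3 colonies of KB10973, a 29 year old male, and 3 colonies of KB10460, a 43 year old female. The other 2 arrays were the dermal fibroblast cultures of the same animals, both labelled healthy controls, 1 array per animal. The colonies came from fibroblasts transduced with retroviruses carrying human OCT4, SOX2, KLF4 and c-MYC. The growth protocol placed iPSCs in DMEM:F12 with knock-out serum replacement and fibroblasts in DMEM with fetal bovine serum, whereas the series description placed both in the serum replacement medium, so that cell type and medium cannot be told apart under the growth protocol. The paper's methods also expanded the colonies on inactivated mouse embryonic fibroblast feeder cells, in medium with bFGF. Cell type and feeder culture therefore cannot be told apart, and the part of feeder RNA in the iPSC arrays was not tested. The p-values between cell types pooled the spread among colonies with the difference between the 2 fibroblast cultures, 1 per animal. Since the colonies of an animal share its genome and its fibroblast culture, and only 2 animals were sampled, these p-values do not measure the spread among orangutans.

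BMP ligands bind pairs of type I and type II serine/threonine kinase receptors, which phosphorylate SMAD1, SMAD5 and SMAD9. These enter the nucleus with SMAD4 and activate target genes, among which the ID genes are the classic direct targets. ID proteins have a helix-loop-helix domain but no basic region, so they bind E proteins such as TCF3, TCF4 and TCF12 and keep them off DNA. In mouse embryonic stem cells BMP4 acts through Id genes to hold back neural differentiation, while in human pluripotent cells added BMP4 drives differentiation toward trophoblast and mesoderm.

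Values were log2 RMA expression values, in which a difference of 1 is a 2-fold difference in hybridisation signal. The array medians lay between 3.74 and 3.82, and values below them are close to background. Levels were compared within a probe set only, since probe sets differ in affinity and human probes can mismatch orangutan transcripts. All 4 pluripotency markers measured were higher in iPSCs, with summed log2 values of 33.4 to 34.95 in iPSCs and 15.0 to 16.3 in fibroblasts. Of 7 dermal fibroblast markers, 6 were lower in iPSCs and THY1 was higher, with summed log2 values of 33.7 to 37.95 in iPSCs and 63.0 to 65.3 in fibroblasts. By the brightest probe set of each gene, LUM was the only 1 of the 7 below the array median in every colony. Because these were bulk cultures, fewer cells of a type and less RNA per cell cannot be told apart. KB10973 colonies 1 and 2 were the most alike of the 15 colony pairs, with a correlation of 0.9944 across probe sets.

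Within the set, 9 of 15 member probe sets passed a fold change of 1.5 and an adjusted p of 0.05 between iPSCs and fibroblasts, against 21.8% of all probe sets. Those of BAMBI, ID1 and ID4 were higher in iPSCs (3 probe sets, background 12.2%), and those of GREM1, BMP2, ID3 and ID2 were lower (6 probe sets, background 9.6%). BMP4 and BMPR2 had no probe set past the threshold. The 6 iPSC arrays lay wholly above both fibroblast arrays for 5 member probe sets (19.8% of all) and wholly below them for 6 (18.2% of all), which made 11 of 15 without overlap, against 38% of all. The median log2 fold change was 0.02 over the 15 members and -0.01 over all probe sets, and the median size of the change was 1.69 among members and 0.18 among all. These shares and sizes were not matched for expression level, and probe sets near background can change little. The members were also chosen with earlier results of these data known. All 9 called member probe sets were among the 11 without overlap, so their direction was necessarily the same in both animals.

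**Figure D1:**
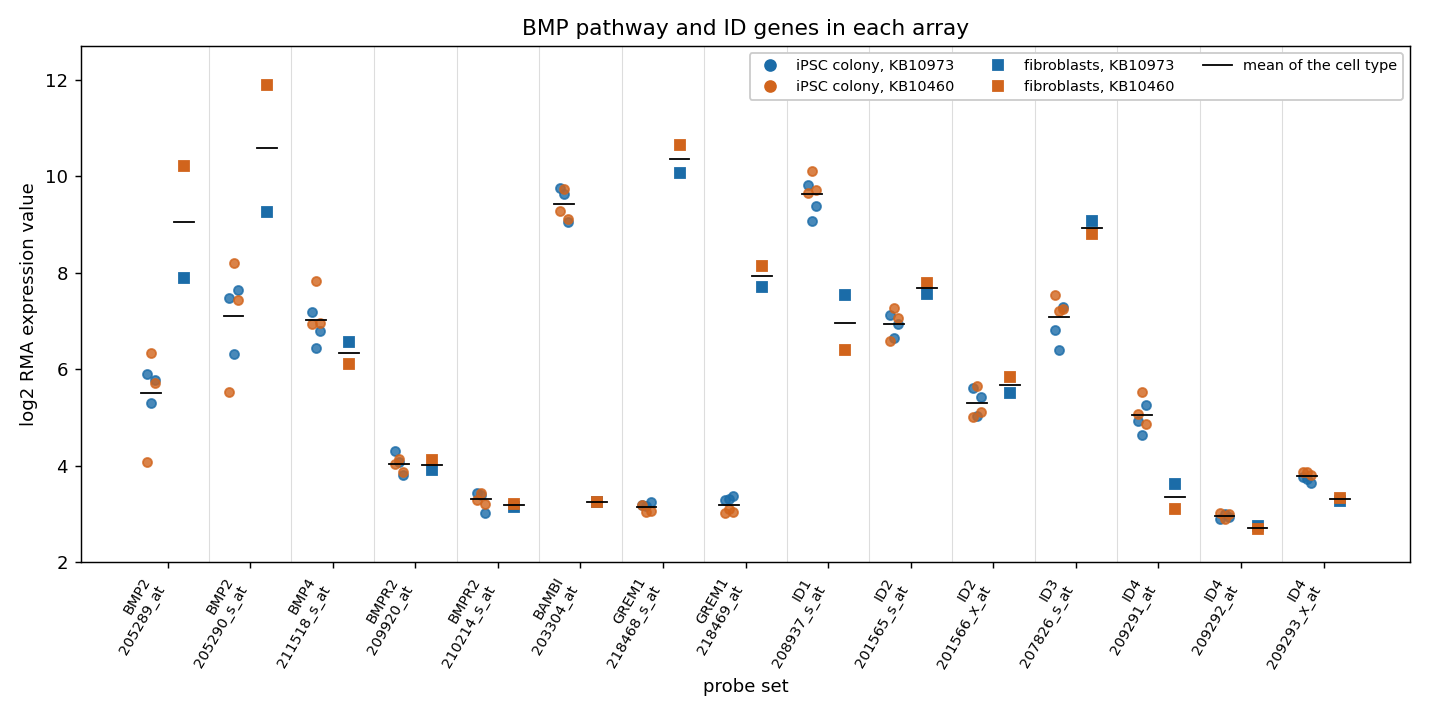
Log2 RMA expression value (y axis) of each of the 15 member probe sets (x axis) in the 6 iPSC colonies (circles, left of each pair) and the 2 fibroblast cultures (squares, right), coloured by animal, with a bar at the mean of each cell type. BAMBI, ID1 and ID4 209291_at sit higher in iPSCs, and BMP2, GREM1 and ID3 sit lower.

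Among the ligands, BMP2 was lower in iPSCs and BMP4 was not called. BMP2 encodes a ligand of the BMP receptors best known for bone and heart formation. On 205290_s_at the iPSC arrays had a lowest value of 5.54, a median of 7.46 and a highest of 8.20, against 9.26 in KB10973 and 11.90 in KB10460 fibroblasts. On 205289_at the iPSC arrays had a lowest value of 4.07, a median of 5.75 and a highest of 6.33, against 7.88 in KB10973 and 10.21 in KB10460 fibroblasts. Every colony lay below both fibroblast cultures on both probe sets, and the fibroblasts of KB10460 were by far the higher of the 2. The log2 fold change was -3.48 (SE 0.79, limma adjusted p = 0.0089) on 205290_s_at and -3.53 (SE 0.66, limma adjusted p = 0.0030) on 205289_at. The size of the change differed with the fibroblast culture it was set against. Without the KB10460 fibroblasts the log2 fold changes were -2.16 on 205290_s_at, where the call was lost (limma adjusted p = 0.114), and -2.37 on 205289_at, and without the KB10973 fibroblasts they were -4.80 and -4.70.

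BMP2 also varied more among the colonies than nearly any other transcript, with an iPSC SD of 0.98 on 205290_s_at and 0.78 on 205289_at, at the 99.8th and 99.6th percentiles of all probe sets. On 205290_s_at the KB10973 colonies 1 to 3 had values of 7.49, 6.31 and 7.65, and the KB10460 colonies 1 to 3 had values of 5.54, 8.20 and 7.44. The low colonies were thus KB10460 colony 1 and KB10973 colony 2. GATA6, an endoderm transcription factor, was low in the same cultures, with 7.33, 6.05 and 8.28 in the KB10973 colonies and 5.88, 8.86 and 9.03 in the KB10460 colonies on 210002_at, against 3.79 in KB10973 and 3.47 in KB10460 fibroblasts. Of the 4 endoderm markers, GATA6 and AFP were higher in iPSCs, with FOXA2 and SOX17 not called, and the sum of their log2 values ran from 18.8 to 25.1 in iPSCs and from 13.7 to 14.7 in fibroblasts. GATA6, FOXA2 and SOX17 were below the array median in both fibroblast cultures. AFP 204694_at had 6.35, 5.51 and 5.95 in the KB10973 colonies, and 6.27, 5.43 and 6.37 in the KB10460 colonies. AFP was thus lowest in KB10460 colony 2, where BMP2 was highest. FOXA2 40284_at was lowest in KB10460 colony 1 and SOX17 in KB10973 colony 2. The part of cells with endoderm markers in the BMP2 values was not tested.

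BMP4, the ligand most often used to steer pluripotent cells, had a lowest value of 6.44, a median of 6.95 and a highest of 7.82 in iPSCs on 211518_s_at, against 6.56 in KB10973 and 6.11 in KB10460 fibroblasts. Only KB10973 colony 2, the lowest, fell between the fibroblast values. The log2 fold change was 0.69 (SE 0.30, 95% interval 0.01 to 1.37, limma adjusted p = 0.13), short of the threshold. Like BMP2, BMP4 was spread widely among the colonies, with an SD of 0.46 at the 97.5th percentile.

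Of the receptors, BMPR2, the type II receptor dedicated to BMP ligands, was not called on either probe set. On 209920_at its mean was 4.04 ± 0.18 in iPSCs (SD, n = 6) and 4.02 ± 0.15 in fibroblasts (SD, n = 2), with a log2 fold change of 0.02 and a 95% interval of -0.28 to 0.32. On 210214_s_at the log2 fold change was 0.13 (95% interval -0.14 to 0.39), and all 8 arrays were below their own medians.

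The antagonists showed the largest differences of the set, in opposite directions. BAMBI encodes a membrane pseudoreceptor that resembles a type I receptor but lacks the kinase domain and dampens BMP, activin and TGF-beta signals. It had a lowest value of 9.05, a median of 9.45 and a highest of 9.76 in iPSCs on 203304_at, against 3.25 in KB10973 and 3.24 in KB10460 fibroblasts. Both fibroblast values lay under the array median, and the colonies lay far above them with no overlap. BAMBI rose by 6.18 on the log2 scale (SE 0.21, 72.6-fold, limma adjusted p = 5.5e-08), likewise a low figure if the fibroblast signal is background.

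GREM1 encodes gremlin, a secreted protein that binds BMP2, BMP4 and BMP7 and blocks their access to receptors. On 218468_s_at the iPSC arrays had a lowest value of 3.04, a median of 3.17 and a highest of 3.24, against 10.08 in KB10973 and 10.66 in KB10460 fibroblasts. On 218469_at the iPSC arrays had a lowest value of 3.01, a median of 3.20 and a highest of 3.37, against 7.71 in KB10973 and 8.15 in KB10460 fibroblasts. All 6 colonies were below the array median on both probe sets, whereas both fibroblast cultures were well above it. The log2 fold change was -7.22 (SE 0.14, 149-fold, limma adjusted p = 1.5e-09) on 218468_s_at and -4.74 (SE 0.14, 26.8-fold, limma adjusted p = 2.5e-08) on 218469_at. Both are understated if the iPSC signal is background.

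The 4 ID genes did not move together: ID1 and ID4 rose in iPSCs, and ID2 and ID3 fell. ID1 had a lowest value of 9.07, a median of 9.68 and a highest of 10.10 in iPSCs on 208937_s_at, against 7.54 in KB10973 and 6.40 in KB10460 fibroblasts. No colony came near the fibroblast values. The log2 fold change was 2.66 (SE 0.32, 6.30-fold, limma adjusted p = 0.00020). ID3, a close relative that acts with ID1 in blood vessel formation in the mouse embryo, went the other way. On 207826_s_at ID3 had a lowest value of 6.39, a median of 7.23 and a highest of 7.54 in iPSCs, against 9.07 in KB10973 and 8.80 in KB10460 fibroblasts. The groups did not overlap, and the log2 fold change was -1.85 (SE 0.26, 3.60-fold, limma adjusted p = 0.00060).

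ID4, best known from neural progenitors of the mouse, was called on 1 of its 3 probe sets. On 209291_at it had a lowest value of 4.65, a median of 5.00 and a highest of 5.52 in iPSCs, against 3.61 in KB10973 and 3.10 in KB10460 fibroblasts. Both fibroblast values were below the array median, and the log2 fold change was 1.69 (SE 0.22, 3.23-fold, limma adjusted p = 0.00036), understated if the fibroblast signal is background. The dimmer probe sets had smaller differences in the same direction, without overlap between the groups. The log2 fold change was 0.48 on 209293_x_at (limma adjusted p = 0.0020) and 0.24 on 209292_at (limma adjusted p = 0.031, all 8 arrays below their medians), both under the fold threshold.

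ID2, known for its role in lymphoid development in the mouse, fell by a small amount on 1 of its 2 probe sets. On 201565_s_at it had a lowest value of 6.59, a median of 7.00 and a highest of 7.28 in iPSCs, against 7.57 in KB10973 and 7.79 in KB10460 fibroblasts. The fibroblasts lay just above the highest colony. The log2 fold change was -0.74 (SE 0.18, 1.68-fold, limma adjusted p = 0.013), and the call was lost without the KB10460 fibroblasts (-0.63, limma adjusted p = 0.115). On 201566_x_at the groups overlapped, and the log2 fold change was -0.36 (SE 0.20, limma adjusted p = 0.229). A further probe set annotated to both ID2 and ID2B was left out by the rule.

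**Figure D2:**
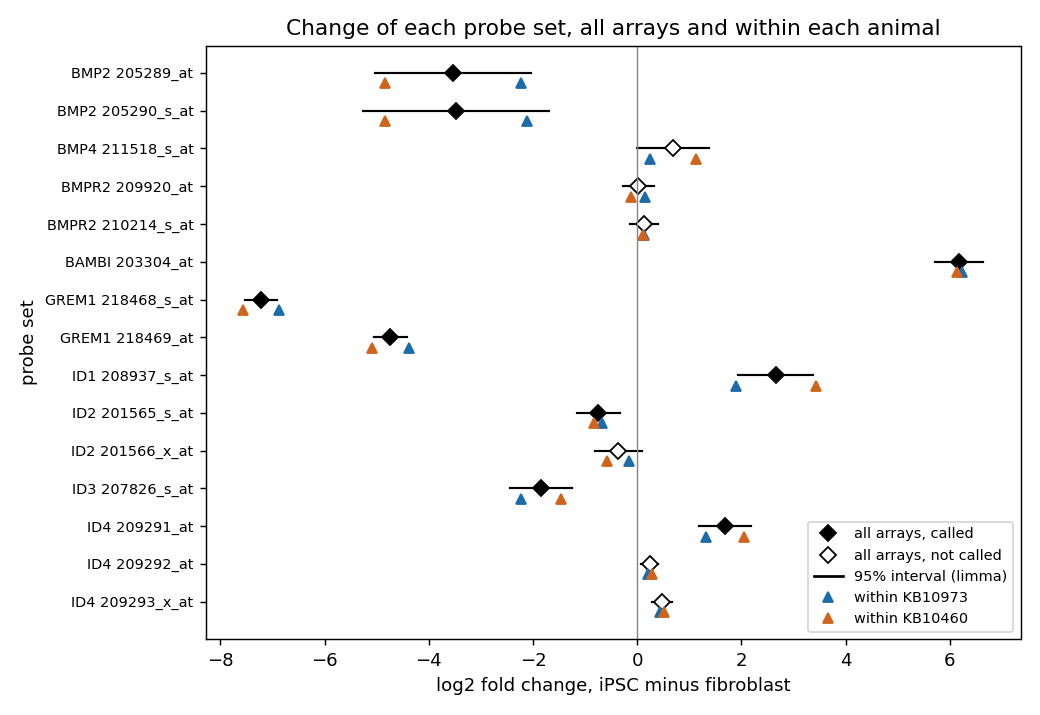
Log2 fold change, iPSC minus fibroblast (x axis), of each member probe set (y axis): diamonds give the fit over all 8 arrays with its 95% limma interval, filled where called, and triangles the change within each animal. Changes run from -7.22 for GREM1 to 6.18 for BAMBI, and the triangles lie far apart for BMP2 and ID1.

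Taken within each animal, the changes had the same sign in KB10973 and KB10460 for 14 of 15 member probe sets, the exception being BMPR2 209920_at. For the 11 without overlap between the cell types the sign was fixed by that separation. The share over all probe sets was not computed. BMP2 205290_s_at changed by -2.11 in KB10973 and -4.84 in KB10460, and ID1 by 1.89 in KB10973 and 3.42 in KB10460. The difference between animals in these changes was fitted over the same arrays. With 1 fibroblast array per animal, its SE and p came from the spread among colonies alone, and each fibroblast culture was assumed to vary like a colony. It was 2.73 (SE 1.31, limma adjusted p = 0.389) for BMP2 205290_s_at and -1.54 (SE 0.40, limma adjusted p = 0.106) for ID1, neither past the threshold. Only GREM1 218469_at passed, 1 of 15 members against 2.91% of all probe sets. Its change was -4.39 in KB10973 and -5.09 in KB10460, a difference of 0.71 (SE 0.15, limma adjusted p = 0.050, just under the threshold), which was lost in each of the 8 alternatives tried (adjusted p 0.0595 to 0.113). On the other GREM1 probe set the difference was 0.68 (SE 0.16, limma adjusted p = 0.072), and it passed without KB10460 colony 1 (0.73, limma adjusted p = 0.0497). Leaving out the same colony also brought BMP2 205289_at past the threshold (1.96, limma adjusted p = 0.0499), whose difference over all arrays was 2.61 (limma adjusted p = 0.282).

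Between the iPSC colonies of the 2 animals, 0 of 15 member probe sets were called by limma, against 0.0898% of all probe sets, and 2 had an unadjusted p under 0.05, against 10.2% of all. These were ID3 and GREM1 218469_at. ID3 had values of 6.82, 6.39 and 7.29 in the KB10973 colonies and 7.54, 7.21 and 7.25 in the KB10460 colonies, a difference of -0.50 (SE 0.21, limma adjusted p = 0.489). GREM1 218469_at differed by 0.27 (SE 0.07, limma adjusted p = 0.263) within a range that was below the array median in every colony.

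In the wider pathway, 55 other genes with 113 probe sets were examined, of which 5 probe sets were higher in iPSCs (12.2% of all probe sets), 23 were lower (9.6% of all) and 85 were not called. Their median size of change was 0.15, near the 0.18 of all probe sets. Of the other ligands, 0 of 19 probe sets in 11 genes were called, including BMP5, BMP6, BMP7, BMP8A, BMP8B, BMP3, BMP10, BMP15, GDF2, GDF5 and GDF7. BMP7 209591_s_at had 3.35 ± 0.19 in iPSCs (SD, n = 6) and 2.90 ± 0.02 in fibroblasts (SD, n = 2), a difference of 0.45 (SE 0.13, limma adjusted p = 0.031) under the fold threshold. Every array was below its own median on this probe set. The other BMP7 probe sets changed by -0.14 (211260_at), -0.04 (211259_s_at) and 0.04 (209590_at).

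Of 7 probe sets of 6 other receptors and co-receptors, 2 rose and 2 fell. The activin type II receptors, which also bind BMP ligands, rose in iPSCs: ACVR2B 220028_at by 1.40 (SE 0.13, limma adjusted p = 3.8e-05) and ACVR2A 205327_s_at by 0.96 (SE 0.14, limma adjusted p = 0.00057). Endoglin (ENG), a co-receptor of endothelial and stromal cells, had 4.28 ± 0.14 in iPSCs (SD, n = 6) and 7.01 ± 0.24 in fibroblasts (SD, n = 2) on 201809_s_at, a change of -2.74 (SE 0.13, limma adjusted p = 4.8e-07). On 201808_s_at ENG was not called (-0.16). ACVR1, the type I receptor mutated in fibrodysplasia ossificans progressiva, had 5.62 ± 0.17 in iPSCs (SD, n = 6) and 6.31 ± 0.05 in fibroblasts (SD, n = 2), a change of -0.68 (SE 0.12, limma adjusted p = 0.0022). ACVRL1 and BMPR1B were not called.

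Among the signal transducers, SMAD1, SMAD5 and SMAD9 were not called on any probe set. SMAD4 202527_s_at had 5.12 ± 0.34 in iPSCs (SD, n = 6) and 4.28 ± 0.51 in fibroblasts (SD, n = 2), with overlap between the groups. The call of its change of 0.84 (SE 0.26, limma adjusted p = 0.036) was lost in 8 of the 15 alternatives, and the change was 0.48 without the KB10460 fibroblasts. On 202526_at SMAD4 was not called (0.07).

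Of the extracellular antagonists other than GREM1, TWSG1 (-1.96), CRIM1 (-1.92 on 202551_s_at and -1.21 on 202552_s_at) and NBL1 (-1.76) fell in iPSCs. CHRDL1 rose (1.21), with FST, FSTL3, CHRD and SOSTDC1 not called. CRIM1 202551_s_at differed by animal, with fibroblast values of 4.47 in KB10973 and 6.64 in KB10460. Its change was thus -0.84 with KB10460 fibroblasts left out and -3.01 with KB10973 fibroblasts left out. The call of this probe set was lost with colonies averaged within each animal (limma adjusted p = 0.201). The CHRDL1 call was lost without the KB10973 fibroblasts (1.11, limma adjusted p = 0.0655). Of the proteases that cut ligands and antagonists, only FURIN was called (-0.62, SE 0.15, limma adjusted p = 0.014), lost in 5 of 15 alternatives, with BMP1, PCSK5, PCSK6, TLL1 and TLL2 not called.

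The inhibitors inside the cell were lower in iPSCs where they were called. SMAD7, which blocks type I receptors and is itself induced by BMP and TGF-beta signals, had 5.33 ± 0.57 in iPSCs (SD, n = 6) and 7.12 ± 0.42 in fibroblasts (SD, n = 2), a change of -1.79 (SE 0.37, limma adjusted p = 0.0054) that lost its call without the KB10460 fibroblasts (-1.50, limma adjusted p = 0.064). SMURF2, a ubiquitin ligase for SMADs and receptors, changed by -1.76, and by -1.07 when KB10460 fibroblasts were left out and -2.45 when KB10973 fibroblasts were. With colonies averaged within each animal, the calls of SMURF2 (limma adjusted p = 0.097) and SMAD7 (limma adjusted p = 0.052) were lost. TOB1 changed by -1.19. SMAD6, an inhibitory SMAD selective for BMP signals, changed by -0.88 on 207069_s_at and was not called on its other 3 probe sets, with changes between -0.20 and -0.07. PMEPA1, SKIL, SMURF1 and SKI were not called.

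Other target genes of the pathway fell or were not called. GATA3, a transcription factor that BMP induces in trophoblast and ectoderm, changed by -4.53 on 209604_s_at (SE 0.23, limma adjusted p = 1.0e-06). Its other probe sets were also called, with far smaller changes of -0.86 on 209603_at and -0.82 on 209602_s_at. TBX3 changed by -4.32 (SE 0.45, limma adjusted p = 9.3e-05). HEY1, which also responds to NOTCH, changed by -2.53 on 44783_s_at and -1.61 on 218839_at. Without the KB10460 fibroblasts HEY1 44783_s_at changed by -3.24 and without the KB10973 fibroblasts by -1.83. MSX1, MSX2, HAND1, RUNX2, DLX2 and DLX5 were not called. GATA3 also belongs to the trophoblast marker list, of whose 5 genes GATA3 and KRT7 were lower in iPSCs, with the sum of their log2 values running from 18.7 to 20.9 in iPSCs and from 25.3 to 26.2 in fibroblasts. TBXT, the only 1 of the listed mesoderm markers measured, was higher in iPSCs (limma adjusted p = 0.042). It ran from 4.74 to 7.34 in iPSCs, against 4.49 in KB10973 and 4.62 in KB10460 fibroblasts. The lowest colony, KB10460 colony 1, thus lay close to the fibroblasts. The part of these cell types in the target gene values was not tested. The E proteins bound by ID proteins had 22 probe sets. TCF4 fell on 6 of them, with the 4 largest changes between -1.21 and -1.01, and TCF3 rose on 1 (210776_x_at). The other 15 were not called, namely TCF4 212385_at, the remaining TCF3 probe sets and those of TCF12.

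**Figure D3:**
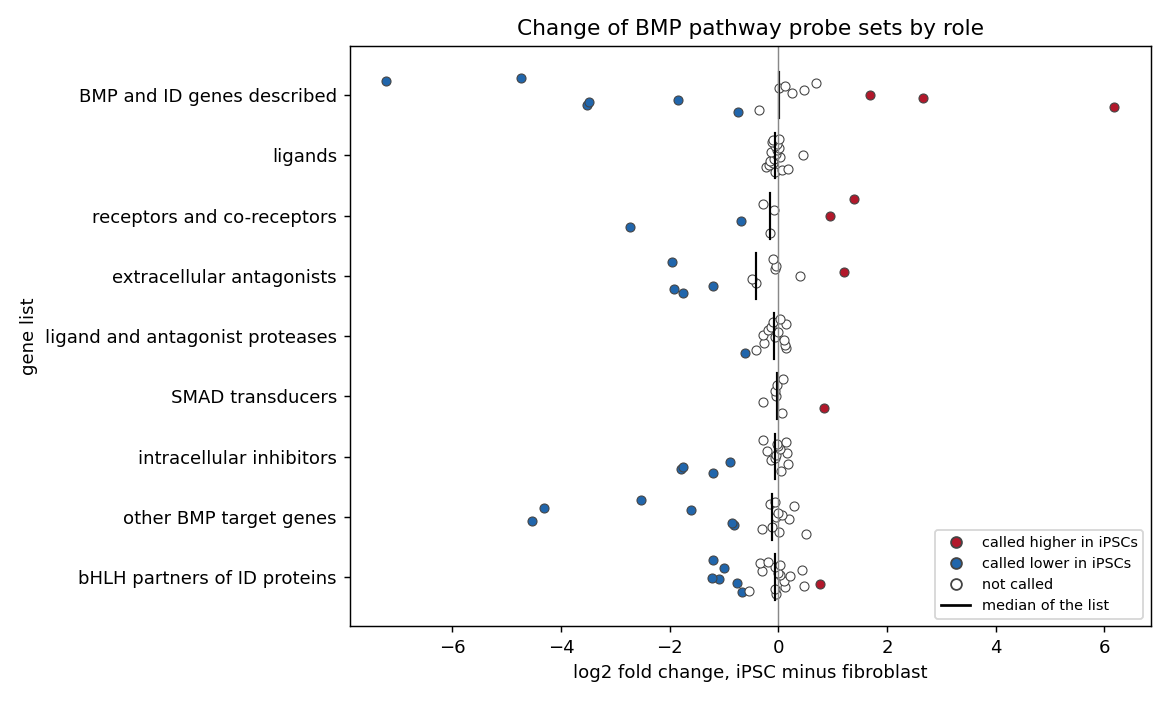
Log2 fold change, iPSC minus fibroblast (x axis), of each probe set of the member genes (top row) and of 8 lists of other pathway genes (rows below), red where called higher in iPSCs, blue where called lower and open where not called, with a bar at each list's median. The member row spans the widest range, and the other ligands hold 0 called probe sets.

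The members also varied more among the colonies than most transcripts. The median iPSC SD was 0.29 over the 15 member probe sets, 0.14 over the other pathway probe sets and 0.13 over all, and 8 of the 15 were above the 90th percentile of all SDs. The SDs were not matched for expression level. GREM1 218468_s_at and ID4 209292_at, below the array median in every colony, were at the 16.6th and 5.8th percentiles. BMP4, ID1 and ID4 209291_at had the same extremes, a pattern noticed after the values were seen and not tested. The dimmer ID4 probe sets did not have both extremes. BMP4 had values of 7.20, 6.44 and 6.78 in the KB10973 colonies 1 to 3, and of 6.94, 7.82 and 6.96 in the KB10460 colonies 1 to 3. ID1 had values of 9.82, 9.07 and 9.38 in the KB10973 colonies, and of 9.66, 10.10 and 9.71 in the KB10460 colonies. ID4 209291_at had values of 4.93, 4.65 and 5.25 in the KB10973 colonies, and of 5.07, 5.52 and 4.87 in the KB10460 colonies. In all 3, KB10973 colony 2 was the lowest and KB10460 colony 2 the highest, an ordering of extremes found in 2.95% of all probe sets. Among the other pathway probe sets 6 of 113 had both extremes, 1 each of ACVR2B, FSTL3, SMAD6, MSX1, MSX2 and HAND1. The remaining MSX2 probe sets did not. The endoderm marker SOX17 and the fibroblast marker LUM also had both, LUM below the array median in every colony. The other endoderm markers, GATA6, AFP and FOXA2, did not. The homeobox gene MSX1 had 5.00, 4.05 and 5.23 in the KB10973 colonies and 5.04, 6.28 and 4.60 in the KB10460 colonies.

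Taken over the set, KB10460 colony 2 was highest in 9 of 15 member probe sets, against 15.6% of all probe sets, and KB10973 colony 2 was lowest in 4 of 15, against 13.9% of all. Among the other pathway probe sets each held for 20 of 113. With the brightest probe set of each gene, KB10460 colony 2 was highest in 5 of 9 genes. ID3 was an exception, highest in KB10460 colony 1. The probe sets of a gene share its transcript and all were read from the same 6 arrays, so these counts are not independent.

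**Figure D4:**
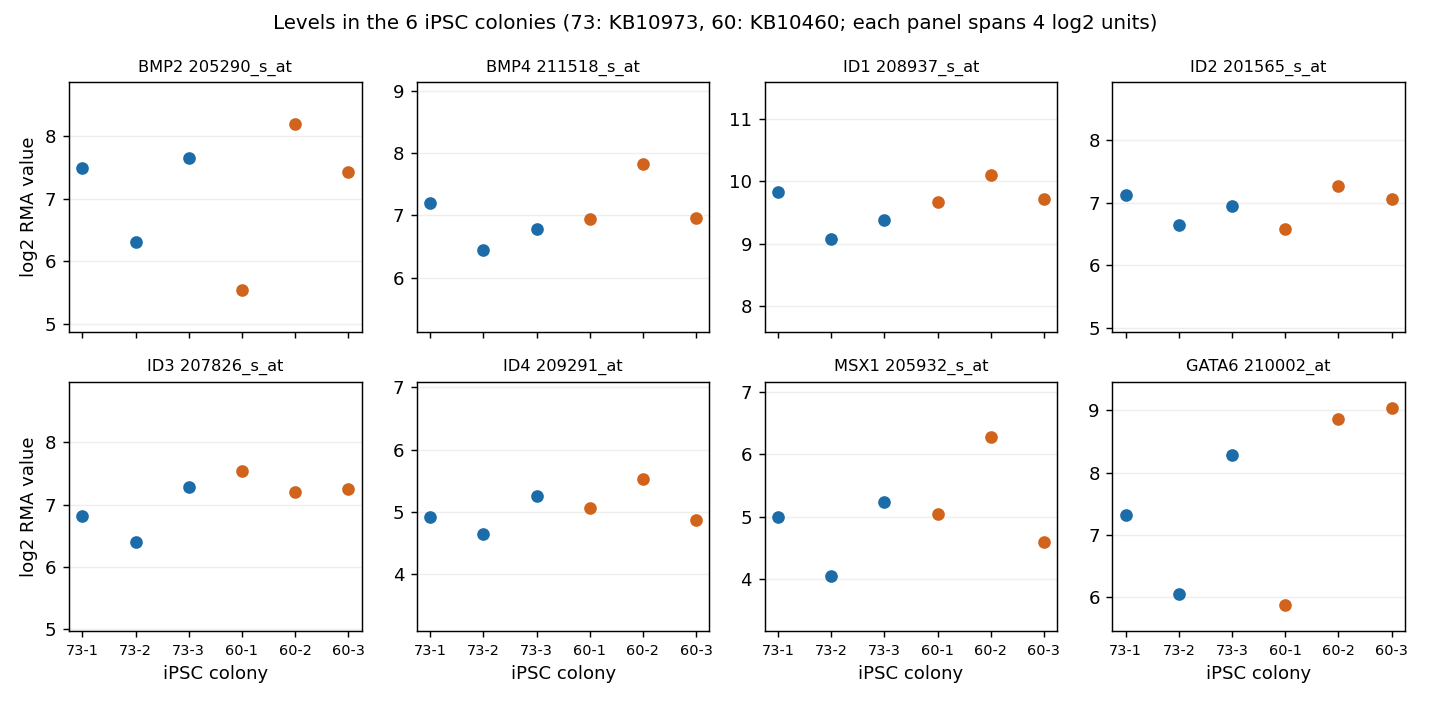
Log2 RMA expression value (y axis, each panel spanning 4 log2 units) in the 6 iPSC colonies (x axis, 73 for KB10973 and 60 for KB10460, then the colony number) for 6 member probe sets, MSX1 and GATA6. KB10973 colony 2 is lowest and KB10460 colony 2 highest for BMP4, ID1, ID4 209291_at and MSX1, whereas KB10460 colony 1 is lowest for BMP2 and GATA6.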

How the data were processed

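RNA of 6 iPSC and 2 fibroblast cultures was hybridised to Affymetrix human GeneChip arrays. The authors computed log2 expression values by RMA (background correction, quantile normalisation and probe set summary) in WebArray, and the deposited table of these log2 values was used as given. The version of WebArray was not given in the sources used here. Quantile normalisation gives all arrays one distribution, and human probes can read orangutan transcripts low. In the platform annotation 19070 probe sets had 1 symbol, 1043 had several and 2164 had no symbol. The table held 0 columns without a sample.

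All 22277 probe sets were fitted with limma 3.58.1 in R 4.3.3 (lmFit, eBayes, two-sided). Following the study's methods, calls needed a fold over 1.5 and an adjusted p under 0.05, with Benjamini-Hochberg adjustment over all probe sets in place of their SPLOSH estimate. Every member probe set was named. Of each other pathway list, the called probe sets (at most 4, by size of change) and the genes without a call were named. Further called probe sets of CRIM1 and GATA3 were added, for which the alternatives were not run. Markers were given as counts, with at most 3 named per list, except that all 4 endoderm markers were named. The values or colony order of GATA6, AFP, FOXA2, SOX17, LUM and TBXT were singled out after the values were seen. So were BMP7, MSX1 and the colony pattern. Members and lists were chosen with earlier results of these data known.

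The iPSC and fibroblast arrays came from the same animals, but the main fit held no donor term and so was not paired. The donor differences of fibroblasts and of iPSCs correlated at 0.0178 across probe sets. Alternatives were the donor or colony number as a block, leaving out each array, a filter on low values, median centring, array weights, trended robust moderation, a fold over 2, averaged colonies, and 1 probe set per gene. The fits were tested on simulated data. The number of arrays limits precision.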

Additional observations from a re-analysis of the deposited data

Results flagged for a closer look

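The iPSC minus fibroblast change of GREM1 218469_at was -4.39 in KB10973 and -5.09 in KB10460, a difference of 0.71 (SE 0.15, limma adjusted p = 0.050) that lost its call in each of the 8 alternatives (adjusted p 0.0595 to 0.113). CRIM1 202551_s_at, a transmembrane protein that binds BMPs, had a difference between the animals of 2.53 (SE 0.23, limma adjusted p = 0.0020), with fibroblast values of 4.47 in KB10973 and 6.64 in KB10460. Both differences rest on 1 fibroblast array per animal, so that the colonies alone supply the spread behind the SE and p, and the spread between fibroblast cultures of an animal was not measured. ACVR1 203935_at had 1 iPSC array apart from the others. KB10460 colony 3 was lowest at 5.30, against 5.60 to 5.76 in the other 5 colonies, a gap of 0.661 of the range, which is above Dixon's 95% limit for 6 samples. It was the only such array among 37 probe sets examined, and chance marks about 1 in 20.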

How the results depend on the processing

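For the 15 member probe sets between iPSCs and fibroblasts, 215 of 222 recomputed values kept their direction and side of the threshold. The calls lost were BMP2 205290_s_at and ID2 201565_s_at without the KB10460 fibroblasts, and both BMP2 probe sets with colonies averaged within each animal (-3.48, adjusted p = 0.0855, and -3.53, adjusted p = 0.0639, limma), where only 4 values remain. BMPR2 209920_at changed sign, from -0.084 to 0.13 when arrays were left out and at -0.010 with KB10973 colonies 1 and 2 averaged, a setting chosen after seeing the data. The number of called members ran from 7 to 9. A fold over 2 called 8 of them (3061 of all probe sets, against 4850), and 1 probe set per gene, where fewer were tested, called 7 (3217 of all). For the difference of the change between animals, 1 member was called, 0 after the filter on low values, 0 after median centring, and 0 to 2 when colonies were left out, where the 648 probe sets called of all became 316 to 940. Between the animals' colonies, BMP2 changed sign when colonies were left out, from -0.67 to 0.66 on 205290_s_at and from -0.37 to 0.76 on 205289_at, and the 20 probe sets called of all became 1 to 152, the last without KB10460 colony 1, and 2 with KB10973 colonies 1 and 2 averaged. Among 22 other named pathway probe sets, 312 of 330 values were kept. The cause of these shifts was not tested.

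With donor as a block, 9 members and 4952 probe sets were called, and no member call changed. Colony numbers shared only a number: same-numbered colonies correlated at -0.055, -0.0111 and 0.0583 in their deviations, and 1 of 6 colonies correlated best with its own number. With colony number as a block, 0 members and 2 probe sets were called between donors. Values near the array median limit what can be read for BMPR2, for the dim ID4 probe sets, for GREM1 in iPSCs, and for BAMBI and ID4 209291_at in fibroblasts.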
